A study of Mus musculus with 16 samples.

Results

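The second step of a stepwise induction of mouse induced pluripotent stem (iPS) cells was examined by setting 4 expression arrays of iPS cells against 4 arrays of the preceding intermediate stage, called OKM. These 8 arrays, chosen by the cell type in the labels, belong to a series of 16. Each array holds RNA of 1 culture dish. Both groups are of strain CD1, and the labels give no animal age and no clone. The titles carry 3F for the OKM dishes and 3F-SOX2 for the iPS dishes, and 3F is read here as 3 factors. OKM is a usual abbreviation for Oct4, Klf4 and Myc, but the labels do not expand it, and they do not say how the factors or Sox2 were delivered, or whether an introduced copy was still active. Both groups were cultured alike, on primary mouse embryonic fibroblasts (MEF) arrested with mitomycin C, with 15% serum and 10 ng/ml of leukemia inhibitory factor (LIF), so the arrays can hold feeder RNA. The other 8 arrays are of CD1 MEF grown without feeders in 10% serum and of embryonic stem (ES) cells of strain 129 whose titles read R26, and they enter here through the shared estimate of the spread and as levels given for orientation. The design text calls the dishes of a group independent without saying what separates them, so p-values measure the spread between dishes. That spread includes any difference between the first and last 8 columns of the deposited table, as both hold arrays of each group.

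Pluripotent cells keep themselves undifferentiated through a network of transcription factors in which Oct4 (the product of Pou5f1), Sox2 and Nanog bind many of the same genes, and in which Esrrb, Klf2, Klf4, Klf5, Tbx3 and Zfp42 mark the naive state of mouse ES cells. LIF, acting through Stat3, and BMP4 help to maintain that state in serum culture, whereas FGF and Nodal signalling prepare cells to leave it. In reprogramming, cells often stop at an intermediate stage in which some ES cell genes are active and the late part of the network is not. The comparison of iPS with OKM asks which genes separate such a stage from the end point in one strain and one culture.

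The median raw intensity of the 8 arrays lay between 114.7 and 134.2, and 45.6% to 49.1% of the probes were detected on each (detection p-value under 0.01). Pearson's r across tested genes was 0.988 to 0.996 between arrays of the same group and 0.934 to 0.942 between OKM and iPS arrays (genes are not independent replicates).

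After normalization 9455 genes were tested. Calls required an adjusted p under 0.05 (limma, Benjamini-Hochberg adjustment) together with a change of at least 2-fold. In iPS cells 688 genes rose, 7.28% of those tested, and 562 fell, 5.94%. The median log2 change over all tested genes was -0.02, the median absolute change 0.36 and the median standard error 0.13. The rises reached further than the falls. At least 4-fold changes were called for 228 genes that rose and 91 that fell, at least 8-fold changes for 76 and 24, and at least 32-fold changes for 17 and 3. By the adjusted p alone 2529 of the 9455 genes were higher and 2653 lower, so small shifts ran both ways about equally often. At least as many pass an unadjusted p under 0.05, the looser threshold given below for lists with 0 calls in a direction. Such counts within a list are to be read against these numbers. Without the subtraction of background the calls fell to 346 and 268. The 4 iPS values lay all above the 4 OKM values for 2337 of the 9455 genes and all below them for 2423. A lack of overlap, as stated for single genes below, was therefore common.

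**Figure D1:**
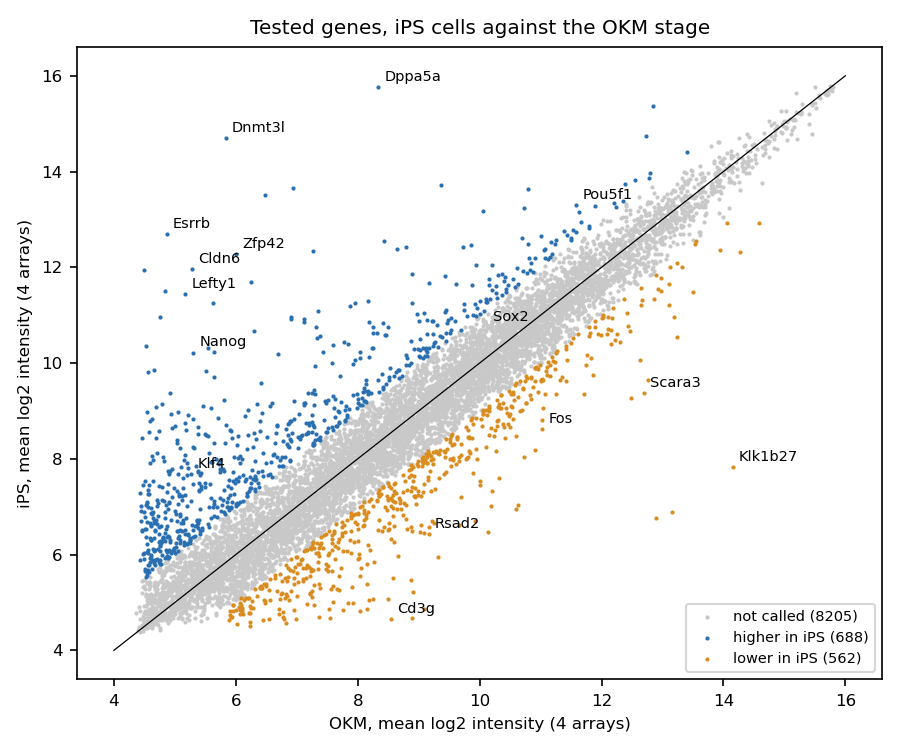
Mean normalized log2 intensity of each of the 9455 tested genes in OKM (x axis) and iPS (y axis), 4 arrays each; the line marks equal levels. The 688 genes called higher (blue) include many that lie at the left edge, near background in OKM, and reach the upper range in iPS, whereas the 562 called lower (orange) stay closer to the line apart from the kallikreins, of which Klk1b27 is labelled.

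The labels were checked against markers. Of 8 pluripotency markers 6 rose, and their mean level was 7.15 to 7.56 on the OKM arrays and 11.67 to 11.92 on the iPS arrays, on the log2 scale. The 10 fibroblast markers, which the feeders also express, had a mean level of 8.65 to 8.87 on the OKM arrays and 8.51 to 8.63 on the iPS arrays. Of the 9 tested 2 fell and 0 rose (limma; 0 at an unadjusted p under 0.05), although Twist2 had no overlap, with 9.51, 9.86, 9.75 and 9.84 in OKM and 10.12, 10.52, 10.45 and 10.37 in iPS. Its difference of 0.63 was not called (limma adjusted p = 0.100). Endothelial Cdh5 and Kdr, blood Ptprc and C1qb, muscle Ckm, trophoblast Eomes, Elf5 and Hand1 and primitive endoderm Gata4 and Sox17 were detected on 0 of the 8 arrays. Other markers of the same types were detected on all 8. They were endothelial Pecam1 and Tek, blood Lyz2 (means 9.24 in OKM and 9.05 in iPS) and Hba-a1, muscle Des and Acta1, and primitive endoderm Gata6 and Dab2. MEF, the cell type of the feeders, had means of 13.31 for Lyz2, 10.05 for Acta1, 8.92 for Des, 9.18 for Gata6, 11.79 for Dab2 and 6.05 for Tek. Pecam1 and Hba-a1 were detected on 0 of 4 MEF arrays. The part of feeder RNA in these signals was not tested. Trophoblast Cdx2 was detected on 3 of 4 OKM and 4 of 4 iPS arrays. In RNA from a whole dish, fewer cells of a type and less RNA per cell cannot be told apart.

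The reprogramming factors were read first. Pou5f1 gave log2 intensities of 11.66, 11.55, 11.57 and 11.58 on OKM arrays 1 to 4 and 13.14, 13.31, 13.19 and 13.55 on iPS arrays 1 to 4, the order used throughout. The groups did not overlap, and Pou5f1 rose by 1.71 (SE 0.15, limma adjusted p = 5.23e-08) from a level that was already high; its second probe rose by 1.62. Sox2, the factor that the iPS titles add, read 10.36, 10.04, 10.01 and 10.07 in OKM and 10.62, 10.52, 10.67 and 11.14 in iPS. Every iPS array lay above every OKM array, but the difference of 0.62 (limma adjusted p = 0.0201) is under 2-fold and was not called. It rests on 1 probe, because the other Sox2 probe was detected on 0 of the 8 arrays. The positions of these probes in the mRNA are not known here, and signal from an introduced copy cannot be told apart from that of the native gene.

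Klf4 was not above background on any OKM array and read 7.77, 7.38, 7.94 and 7.64 in iPS. All 4 iPS arrays detected it, it was at least 4.08-fold higher (limma adjusted p = 3.67e-10), and each of its 3 probes was detected on 4 iPS and 0 OKM arrays. The Klf4 mean was 8.86 ± 0.18 in MEF and 10.51 ± 0.25 in ES (SD, n = 4 each). Where the Klf4 and Myc probes lie in the mRNA is not known here, and whether they read an introduced copy was not tested. Myc read 6.27, 5.69, 6.15 and 6.21 in OKM, where 3 of 4 arrays detected it, and 6.79, 6.30, 7.0 and 7.25 in iPS, a difference of 0.75 that was not called (limma adjusted p = 0.00462). Nanog, the network's homeobox factor, was detected on 1 of 4 OKM arrays. Its values were 5.61, 5.38, 5.58 and 4.63 in OKM and 10.46, 10.35, 9.90 and 10.15 in iPS. The groups lay far apart, with a rise of 4.92 (SE 0.22, limma adjusted p = 5.06e-12). For orientation, the means of Nanog were 4.93 ± 0.27 in MEF, 5.30 ± 0.46 in OKM, 10.22 ± 0.25 in iPS and 11.75 ± 0.39 in ES (SD, n = 4 each), and those of Sox2 were 5.09 ± 0.33, 10.12 ± 0.16, 10.74 ± 0.27 and 12.19 ± 0.49.

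**Figure D2:**
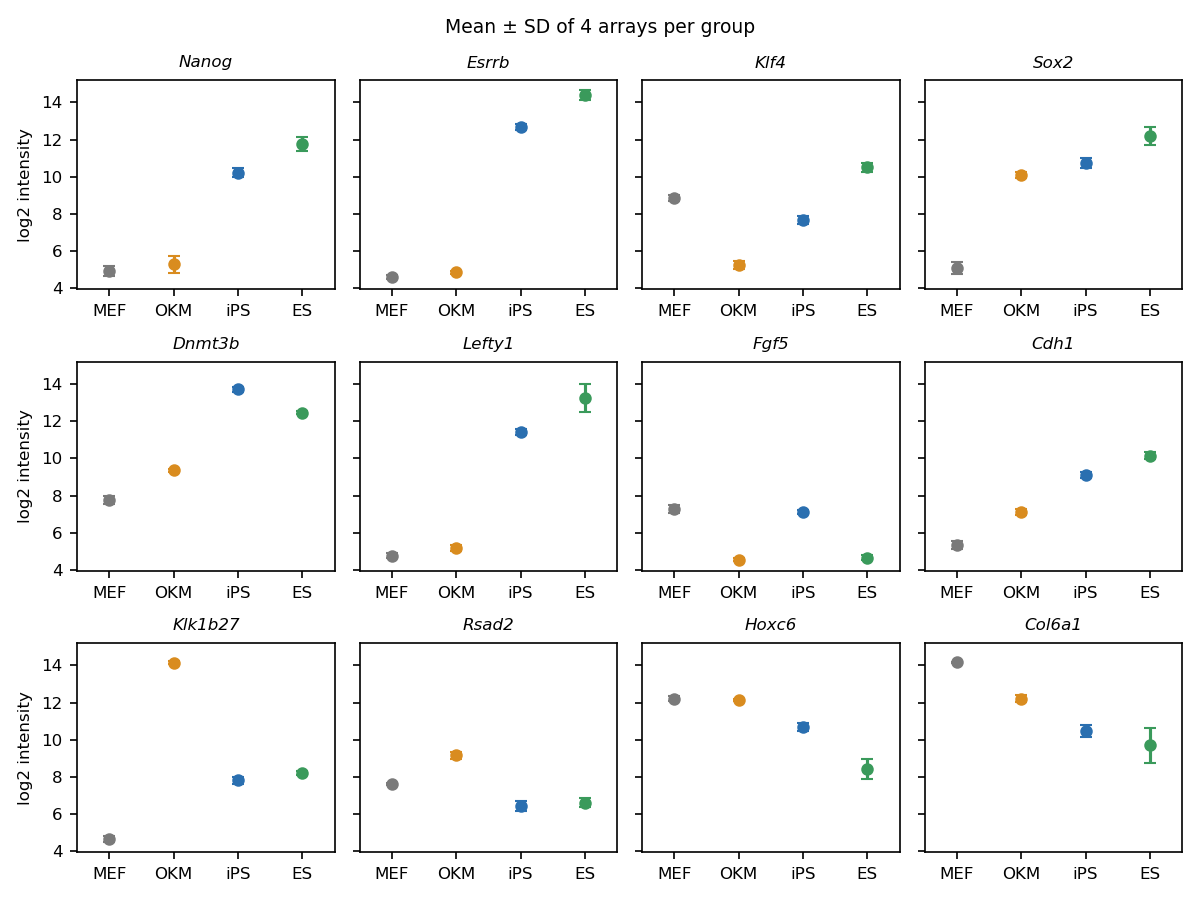
Mean ± SD of the normalized log2 intensity (y axis) of 12 genes in MEF, OKM, iPS and ES, 4 arrays per group. Nanog, Esrrb and Lefty1 lie near background in MEF and OKM and are high in iPS and ES; Klf4 is low in OKM alone; Fgf5 is at background in OKM and in ES; Klk1b27 is highest in OKM.

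Of 16 pluripotency regulators tested 11 rose and 0 fell (limma; 0 at an unadjusted p under 0.05), with a median log2 change of 1.98 (1.87 with undetected levels at their bounds). A bound stands where a group had 0 detected arrays and takes, on each array of that group, the lowest signal among detected probes as its level. Calls use the fitted log2 change and not the bound, so a called gene can have a bound under 2-fold. How many calls have such a bound is not given here. Esrrb, an orphan nuclear receptor, was detected on 0 of 4 OKM arrays and read 12.93, 12.49, 12.66 and 12.65 in iPS. That is at least 131-fold higher (limma adjusted p = 3.72e-18). Zfp42 (Rex1), a zinc finger factor, read 6.15, 5.88, 5.83 and 6.19 in OKM and 12.20, 12.28, 12.34 and 12.29 in iPS. Its 4 iPS values differ by little, and it rose by 6.27 (SE 0.13). Krüppel-like factor gene Klf2 read 6.91, 6.69, 6.98 and 7.05 in OKM and 10.89, 10.92, 10.90 and 11.12 in iPS, a rise of 4.05. Also higher were Tcl1 (at least 9.69-fold higher), whose product is a coactivator of the kinase Akt, the homeobox gene Gbx2 (3.73), the zinc finger gene Sall4 (2.10) and Nr5a2 (at least 2.77-fold higher), a nuclear receptor that can bind the Pou5f1 gene. The T-box gene Tbx3 (1.03, call lost at a log2 change of 0.99 without OKM replicate 4 or iPS replicate 3) was near the threshold. Klf5, which acts beside Klf2 and Klf4, differed by 0.42 and was not called, nor were Zfp281 (0.85), Rif1 (detected on 2 of 4 iPS and 0 of 4 OKM arrays) and Zfx (0.07).

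The promoters of the network genes that went from at or near background to a high level are shown because those genes moved together. The 150 bases before the start of transcription are given 5′ to 3′ on the gene's strand, from RefSeq on GRCm38.p6, with matches on either strand to ACAATG (a Sox-type motif) or CCNCNCCC (a Krüppel-like motif) in capitals. Nanog lies at chr6:122707339-122707488 on the + strand, Esrrb at chr12:86360967-86361116 on the + strand and Zfp42 at chr8:43307010-43307159 on the - strand.
Nanog: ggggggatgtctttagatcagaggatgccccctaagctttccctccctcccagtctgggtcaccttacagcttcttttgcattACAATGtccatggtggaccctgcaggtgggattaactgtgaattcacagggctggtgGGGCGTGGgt
Esrrb: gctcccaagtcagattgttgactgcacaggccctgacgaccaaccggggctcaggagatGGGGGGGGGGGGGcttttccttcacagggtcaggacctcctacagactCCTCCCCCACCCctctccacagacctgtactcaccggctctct
Zfp42: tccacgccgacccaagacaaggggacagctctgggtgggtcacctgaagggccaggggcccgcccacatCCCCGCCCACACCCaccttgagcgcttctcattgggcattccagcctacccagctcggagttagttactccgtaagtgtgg

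ACAATG was found in the Nanog window and in neither of the others, and CCNCNCCC was found in all 3. The capitals of Nanog run from the Sox-type match to a Krüppel-like match close to the start, and those of Esrrb mark runs of overlapping Krüppel-like matches. Such letters are common, as CCNCNCCC was found in 69.4% of 519 promoters of genes that rose, 70.6% of 402 of genes that fell and 69.5% of 7641 of all tested genes, over the 300 bases around the start (250 before, 50 after). ACAATG stood in 6.17%, 8.46% and 6.92% of them. The octamer ATGCAAAT was found in 1.73% of the promoters of genes that rose, 3.48% of those of genes that fell and 1.47% of all. TCAAGGTCA, an Esrrb-type motif, was found in 0.193% of the first set and 0.288% of all tested, and in 0 of the 402 promoters of genes that fell. The E-box CACGTG, a motif of Myc and related factors, was found in 13.5%, 6.97% and 10.1%. The promoters of genes that rose and fell had a median of 17 and 13 CpG in 300 bases, against 20 for all tested genes, and the part of base composition in these shares was not tested. A match describes letters only, and 7641 of the 9455 tested genes had a promoter in the table.

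ES cell associated genes rose the most as a list, in 15 of 20 cases with a median of 2.64, while 0 fell (limma; 1 at an unadjusted p under 0.05). Dppa5a, a KH-domain RNA-binding protein of ES cells, read 8.29, 8.34, 8.39 and 8.30 in OKM and 15.78, 15.80, 15.77 and 15.71 in iPS. The groups were far apart, with a rise of 7.43 (SE 0.11). Its raw intensity in iPS was 55390 to 59894, where the brightest probes of these arrays read 58165 to 61573, and saturation was not tested. A second Dppa5a probe, at 6.03, 6.71, 6.37 and 6.31 in OKM and about as bright in iPS, rose by 9.38, so the size of the rise depended on the probe. Ooep, a KH-domain gene first known from the oocyte, read 6.29, 6.58, 6.39 and 6.68 in OKM and 13.54, 13.51, 13.46 and 13.56 in iPS, and Dppa4, a chromatin protein with a SAP domain, 6.88, 7.03, 6.87 and 7.0 in OKM and 13.75, 13.58, 13.71 and 13.58 in iPS. Neither overlapped between the groups, and they rose by 7.03 and 6.71. Further rises were those of Utf1 (at least 57.6-fold higher), Lin28a (at least 11.2-fold higher), which blocks let-7 processing, Tex19.1 (3.74), Rbpms2 (3.13), Zscan10 (2.65), Trh (2.62) and Upp1 (2.000) (adjusted p at most 1.22e-11, limma). Smaller rises were called for Mkrn1 (1.19), Mybl2 (1.09) and L1td1 (1.05, call lost at a log2 change of 0.99 without OKM replicate 2). The remaining members were not called, among them Fbxo15 (-0.56), Eras (-0.30), Slc7a3 (-0.20) and Jam2 (0.05).

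Several of these genes are neighbours. On chromosome 6 the 4 consecutive tested genes Gdf3, Dppa3, Nanog and Slc2a3 were all called higher. Gdf3, a ligand of the TGF-beta family, read 7.12, 7.38, 7.38 and 7.45 in OKM and 10.25, 10.49, 10.48 and 10.91 in iPS. Its rise was 3.20. Dppa3 (Stella), which protects methylated DNA in the early embryo, was detected on 0 of 4 OKM arrays and read 9.70, 9.83, 9.88 and 9.85 in iPS, at least 17.9-fold higher. Slc2a3, a glucose transporter, read 11.80, 11.54, 11.71 and 11.48 in OKM and 13.35, 13.03, 13.21 and 13.06 in iPS, a rise of 1.53. Over the genome, 14 runs of 3 or more consecutive tested genes were called in the same direction, 7 of them higher. Among them were Ano1, Fgf4 and Fgf15 on chromosome 7 and Rhox5, Rhox6 and Rhox9 on the X chromosome. How many runs would arise from the order alone was not tested.

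**Figure D3:**
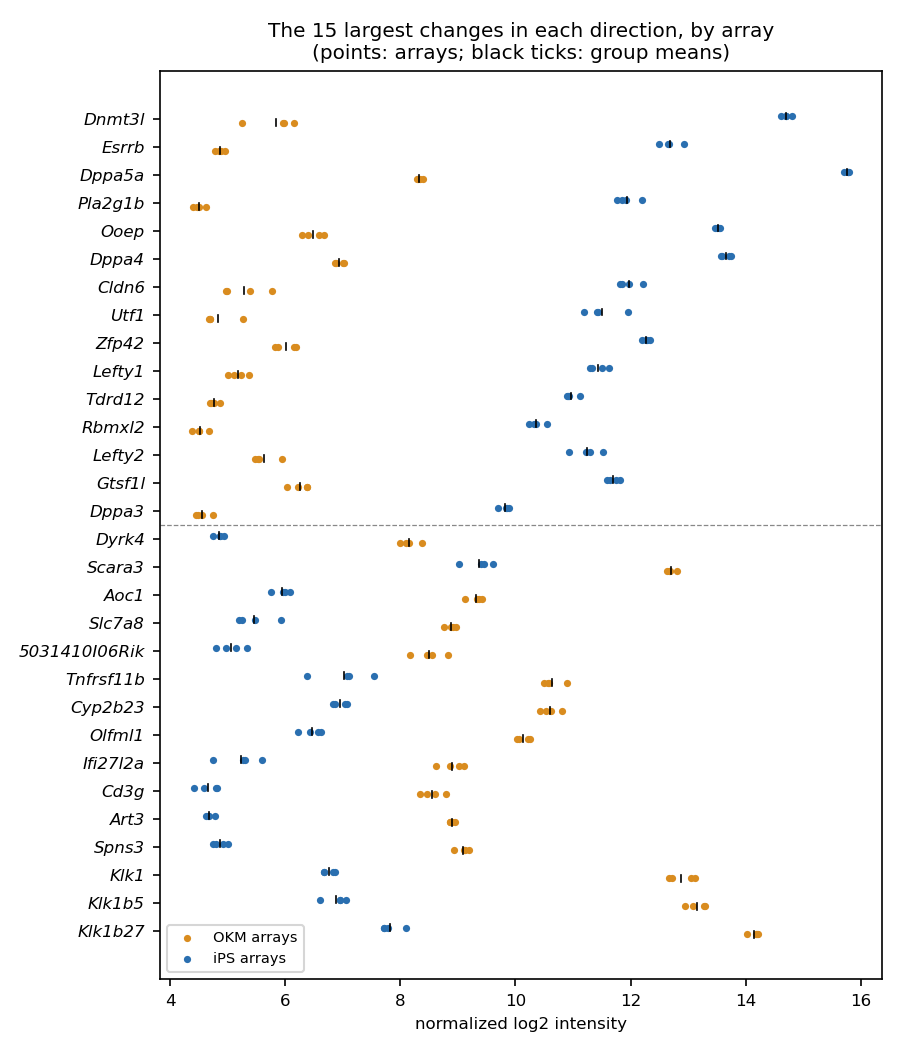
Normalized log2 intensity (x axis) on each of the 4 OKM (orange) and 4 iPS (blue) arrays for the 15 largest called rises (above the dashed line) and the 15 largest called falls (below it); black ticks are group means. The 30 genes were chosen by size of change among called genes without overlap, so separation of the groups follows from the choice. In each of them the gap is wider than the spread within either group.

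Read from the brightest probe of each gene, the largest difference was that of Dnmt3l, a cofactor of the de novo DNA methyltransferases. It read 5.25, 5.99, 5.96 and 6.15 in OKM, with detection on 3 of 4 arrays, and 14.80, 14.61, 14.70 and 14.71 in iPS. It rose by 8.87 (SE 0.15, limma adjusted p = 8.43e-18), and 1 OKM array lay below the other 3. Its partner enzyme gene Dnmt3b read 9.37, 9.37, 9.27 and 9.46 in OKM and 13.93, 13.66, 13.66 and 13.61 in iPS. That is a 20.4-fold rise with no overlap. The maintenance enzyme gene Dnmt1 differed by 0.01 and its cofactor gene Uhrf1 by 0.42, and neither was called. Of 13 genes of DNA methylation and its removal 3 rose, the third being Dppa3, and 1 fell, Gadd45b (-1.45), a stress-induced gene linked to demethylation.

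Many germline genes are silenced by DNA methylation in somatic cells. Of 24 such genes on the array 10 passed the detection filter and were tested. A gene undetected in OKM could pass it only through other groups, so the share that rose is partly set by the filter. Of the 10 tested 7 rose and 0 fell (limma; 0 at an unadjusted p under 0.05). The median log2 change was 2.15 (1.42 with undetected levels at their bounds). The piRNA pathway genes Tdrd12 (at least 39.7-fold higher), Piwil2 (2.05) and Mov10l1 (at least 1.20-fold higher) were among them, as were Tex14 (at least 3.48-fold higher), needed for the bridges between germ cells, the RNA-binding gene Dnd1 (2.79) and Taf7l (at least 2.05-fold higher), a germ cell form of a TFIID subunit. Tdrd12 read 10.89, 10.93, 10.92 and 11.12 in iPS and was detected on 0 of 4 OKM arrays. Ddx4 (Vasa) was detected on 4 of 4 iPS and 0 of 4 OKM arrays without being called, and Dazl and Tex11 on 0 of the 8. Gtsf1l and Rbmxl2, related to germ cell genes, also belong to the 15 largest rises. Gtsf1l read 6.03, 6.39, 6.38 and 6.22 in OKM and 11.59, 11.65, 11.75 and 11.81 in iPS, and Rbmxl2, below detection in OKM, 10.55, 10.23, 10.32 and 10.36.

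Among 21 imprinted genes 5 rose and 0 fell (limma; 5 at an unadjusted p under 0.05). Phlda2, a maternally expressed gene that restrains placental growth, read 8.17, 8.52, 8.46 and 8.60 in OKM and 12.39, 12.52, 12.57 and 12.69 in iPS. The groups were far apart and the rise was 4.11. The other calls were the retrotransposon-derived gene Peg10 (at least 1.54-fold higher), Mest (at least 1.79-fold higher), the Notch-ligand-like gene Dlk1 (1.19, detected on 1 of 4 OKM arrays) and the growth factor gene Igf2 (1.14). Mest had a mean of 6.50 in iPS, 10.01 ± 0.21 in MEF and 8.46 ± 0.24 in ES (SD, n = 4 each). These values say nothing of which allele is read. Cdkn1c (-0.05), Grb10 (-0.15) and Snrpn (-0.17) were not called. Peg3 was detected on 4 of 4 OKM and 0 of 4 iPS arrays, also without a call. Without single arrays, at most 1 imprinted gene was called lower.

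Polycomb genes, whose products keep developmental genes silent, rose in 4 of 16 cases. Cbx7, the Polycomb repressive complex 1 subunit typical of ES cells, read 7.80, 8.08, 7.99 and 7.96 in OKM and 9.86, 10.13, 10.04 and 10.25 in iPS. It rose by 2.11, and its relative Cbx8 (-1.15) was the 1 member that fell. Higher were also Mtf2 (1.38) and Eed (1.31), of complex 2, and Pcgf6 (1.02, call lost at a log2 change of 0.97 to 0.99 without OKM replicate 1, OKM replicate 3 or iPS replicate 1). The catalytic subunit gene Ezh2 (0.55) and Suz12 (0.44) were not called. Of 26 chromatin remodelling genes 4 rose, Arid3b (2.82), Trim28 (1.09), a corepressor that silences retroviral elements, the demethylase gene Kdm5b (1.05, call lost at a log2 change of 0.9995 without OKM replicate 4) and Ing5 (at least 1.31-fold higher, call lost at a log2 change of 0.94 to 0.99 without OKM replicate 2, iPS replicate 1, iPS replicate 3 or iPS replicate 4). Smarca2, which encodes the ATPase Brm of SWI/SNF complexes, read 13.10, 13.19, 12.97 and 13.15 in OKM and 11.42, 11.22, 11.31 and 10.93 in iPS. It fell by 1.88 as the 1 member called lower, whereas the alternative ATPase gene Smarca4 (Brg1), typical of ES cells, differed by 0.08.

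Nodal signalling is a TGF-beta type pathway with feedback inhibition by the Lefty proteins. Of 12 genes of this axis 6 rose and 0 fell (limma; 2 at an unadjusted p under 0.05), with a median of 0.77. The ligand gene Nodal read 7.37, 7.30, 7.63 and 7.64 in OKM and 9.03, 9.09, 8.99 and 9.58 in iPS. It rose by 1.69. The inhibitors rose more. Lefty1, below detection on 4 OKM arrays, read 11.50, 11.29, 11.32 and 11.62, at least 55.0-fold higher, and Lefty2 read 5.48, 5.53, 5.55 and 5.95 in OKM, with detection on 2 of 4 arrays, and 11.52, 11.30, 11.23 and 10.93 in iPS, a rise of 5.62. The receptor gene Acvr2b (1.23) and Foxh1 (1.76), the DNA-binding partner of Smad2, rose too. The coreceptor gene Tdgf1 (Cripto) read 8.22, 7.09, 8.28 and 6.90 in OKM and 7.45, 8.23, 7.43 and 7.93 in iPS. Those values overlap and spread widely within OKM, and the difference of 0.14 was not called. The spread follows the place in the deposited table. OKM arrays 1 and 3 and iPS arrays 2 and 4, of its last 8 columns, read 7.93 to 8.28. The arrays of the first 8 columns read 6.90 to 7.45, and the cause was not tested. Smad2 (0.31), Smad3 (-0.33) and Smad4 (-0.10) were not called either.

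In the FGF pathway the calls fell on ligands. Of 15 genes 4 rose, all ligand genes, Fgf17 (at least 5.50-fold higher), Fgf5 (at least 2.73-fold higher), Fgf15 (at least 2.01-fold higher) and Fgf4 (1.5, detected on 3 of 4 OKM arrays). Fgf4, the autocrine ligand of ES cells, read 6.35, 5.76, 5.93 and 6.12 in OKM and 7.42, 7.50, 7.64 and 7.58 in iPS. The groups did not overlap. Fgf5, a marker of the primed epiblast, was detected on 0 of 4 OKM arrays and read 6.97, 7.14, 7.24 and 7.06 in iPS, with means of 7.27 ± 0.21 in MEF and 4.64 ± 0.14 in ES. The carrier gene Fgfbp1 (-1.49) was the 1 that fell. The feedback and target genes of ERK were not called, with Spry4 at 0.72, Dusp6 at 0.38, Etv5 at 0.16 and Etv4 at -0.06.

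Wnt pathway genes rose in 6 of 19 cases. Axin2, a feedback inhibitor and a common readout of the pathway, was below detection in OKM and read 7.80, 7.63, 7.58 and 7.73 in iPS, at least 4.08-fold higher (limma adjusted p = 4.32e-11). The ligand genes Wnt7b (2.73, detected on 1 of 4 OKM arrays) and Wnt8a (at least 1.46-fold higher), the receptor gene Fzd7 (1.64), the effector gene Lef1 (1.59, detected on 1 of 4 OKM arrays) and the secreted inhibitor gene Notum (1.05, call lost at a log2 change of 0.94 to 0.99 without OKM replicate 1, OKM replicate 3 or iPS replicate 3) rose with it. The 1 member that fell was Sfrp1 (-1.65), a secreted antagonist. Sp5, another target gene, was detected on 3 of 4 OKM and 1 of 4 iPS arrays and was not called (-0.32).

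BMP genes moved apart. Bmp4 read 8.23, 8.10, 8.25 and 8.41 in OKM and 10.85, 10.51, 10.64 and 10.96 in iPS. It rose by 2.50 (SE 0.10), the 1 rise among 15 genes. The Bmp4 mean was 12.24 ± 0.07 in MEF and 11.22 ± 0.11 in ES (SD, n = 4 each), and the part of feeder RNA was not tested. Lower in iPS were Id1 (-1.14), a target gene and inhibitor of bHLH factors, Smad5 (-1.29), a mediator, and the homeobox gene Msx1 (-1.73). Id3 (-0.64) was not called and Id2 was detected on 1 of 4 iPS and 0 of 4 OKM arrays. In the LIF pathway 3 of 15 genes rose and 4 fell. The feedback inhibitor gene Socs3 read 13.20, 13.13, 13.13 and 13.01 in OKM and 12.09, 12.09, 12.04 and 11.79 in iPS. It fell by 1.12, while its relative Socs2 read 8.80, 9.30, 8.83 and 8.94 in OKM and 11.14, 11.17, 10.96 and 10.85 in iPS and rose by 2.07. Of the Pim kinases, survival factors downstream of Stat3, Pim2 (-1.44) fell and Pim1 (1.02, detected on 1 of 4 OKM arrays, call lost at a log2 change of 0.75 to 0.92 without OKM replicate 3, OKM replicate 4 or iPS replicate 4) rose, the latter with overlapping groups. A second Pim1 probe, detected on 3 of 4 arrays in each group, differed by -0.03, and the mean of its probes was not called (0.49). The receptor gene Lifr (-1.06, call lost at a log2 change of -0.95 to -0.98 without OKM replicate 4 or iPS replicate 2) and Cish (-1.01, call lost at a log2 change of -0.95 to -0.9996 without OKM replicate 3, iPS replicate 2 or iPS replicate 4) fell as well, and Gfpt2 (1.13) rose. Without single arrays 2 to 4 members were called lower. Stat3 itself differed by -0.63.

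Genes of the primed epiblast, the stage after the naive one, rose in 6 of 10 cases and 1 fell with a median of 1.62 (1.52 with undetected levels at their bounds). Pou3f1 (Oct6) read 7.27, 7.25, 7.25 and 7.75 in OKM and 10.52, 10.64, 10.57 and 10.52 in iPS, a rise of 3.18. Otx2, a homeobox gene of the early epiblast, read 9.49, 9.09, 9.27 and 9.03 in OKM and 10.78, 11.01, 10.66 and 11.01 in iPS and rose by 1.65. The carbonic anhydrase gene Car14 (at least 3.55-fold higher) was higher too, as were Dnmt3b, Fgf5 and Lef1 above, and Zic2 (-1.28, detected on 2 of 4 iPS arrays) fell. The primitive endoderm list gave 5 rises and 1 fall among 13 genes, with a median of 0.01. Those that rose were Amn (3.17), a partner of cubilin, Apoe (2.39), Sox7 (1.5), the laminin gene Lama1 (1.36) and Gata6 (1.02, call lost at a log2 change of 0.91 to 0.98 without OKM replicate 1, iPS replicate 1 or iPS replicate 3), and Dab2 (-1.39) fell. The defining genes Gata4 and Sox17 were below detection on the 8 arrays. Of neural and mesoderm genes 2 of 11 fell, the homeobox gene Meis2 (-2.19) and Map2 (-1.46), and 0 rose (limma; 2 at an unadjusted p under 0.05).

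The list of trophoblast and Rhox genes rose in 7 of 15 cases. Rhox9, a homeobox gene of the X-linked Rhox cluster, read 6.18, 6.42, 6.18 and 6.40 in OKM and 10.46, 10.56, 11.02 and 10.63 in iPS. It rose by 4.37, and its neighbours Rhox6 (3.64, detected on 1 of 4 OKM arrays) and Rhox5 (1.24) rose with it. The keratin genes Krt18 (at least 7.96-fold higher) and Krt7 (1.33), the placental gene Plac1 (at least 1.80-fold higher) and Gata2 (1.02, call lost at a log2 change of 0.96 without iPS replicate 1) were higher, and Tfap2a (-1.18) was lower. The trophoblast determinant Cdx2 read 5.51, 5.39, 5.79 and 5.91 in OKM and 6.66, 6.28, 6.72 and 6.63 in iPS. These do not overlap, yet the difference of 0.92 was not called, and Eomes and Elf5 were at background on all 8 arrays.

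Of 31 genes of epithelial cells and their junctions 12 rose and 2 fell, with a median of 0.58 (0.51 with undetected levels at their bounds). E-cadherin (Cdh1) read 7.37, 7.07, 7.06 and 7.01 in OKM and 9.14, 9.35, 8.99 and 9.03 in iPS. It rose 4.01-fold (SE 0.13 on the log2 scale, limma adjusted p = 5.68e-10). Cldn6, a claudin of early embryonic epithelia, was below detection on 4 OKM arrays and read 11.85, 11.82, 11.97 and 12.22 in iPS, at least 79.5-fold higher. A second claudin gene, Cldn4 (2.98), rose as well, whereas Cldn3 (0.41), Cldn7 (0.29) and Cldn9 (0.05) were not called. Transcription factor gene Grhl2 (at least 9.06-fold higher) and sorting adaptor gene Ap1m2 (at least 10.1-fold higher) went from below detection to detection on 4 of 4 arrays, as did Ovol1 (at least 2.02-fold higher). The protease gene Prss8 (2.29), the small GTPase gene Rab25 (1.88), the splicing regulator gene Esrp1 (1.38), Tjp3 (1.13, detected on 3 of 4 OKM arrays) and Lad1 (1.04, call lost at a log2 change of 0.93 without iPS replicate 1) were the other rises. Grhl3 went against its relative. It read 8.11, 8.15, 8.13 and 8.26 in OKM and 6.31, 5.78, 6.39 and 6.33 in iPS and fell by 1.96, and the keratin gene Krt19 (-1.59) fell as well.

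Markers of other cell types were mixed. Of 10 endothelial markers Robo4 (at least 5.23-fold higher) and Vwf (at least 3.40-fold higher) rose, and Pecam1 (-1.08), also a surface protein of ES cells, and the angiopoietin receptor gene Tek (-1.77) fell. Cdh5 and Kdr, which define endothelium, were below detection. Of 8 muscle markers Myl4 (2.70), Acta1 (1.42) and Tnnt1 (1.19) rose and Des (-1.40) fell, and Myog was detected on 1 of 4 OKM and 2 of 4 iPS arrays. Among 15 blood markers Cd79b (at least 1.70-fold higher) rose and Hba-a1 (-1.53) and Cd3g (at least 8.08-fold lower) fell, with Ptprc, C1qa, C1qb and C1qc below detection on the 8 arrays. Cd3g, a chain of the T cell receptor complex, read 8.46, 8.79, 8.34 and 8.61 on the OKM arrays and was detected on 0 of 4 iPS arrays, while Cd3e was detected on 0 of 4 OKM arrays. Without single arrays 1 or 2 blood markers were called lower.

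The deepest falls were those of tissue kallikreins, secreted serine proteases that lie in a cluster on chromosome 7. Klk1b27 read 14.02, 14.22, 14.20 and 14.17 in OKM and 7.79, 7.71, 8.09 and 7.71 in iPS. It fell by 6.33 (SE 0.11, limma adjusted p = 8.43e-18). Klk1b5 read 13.28, 13.08, 13.29 and 12.95 in OKM and 6.60, 6.95, 6.94 and 7.05 in iPS, and Klk1 13.04, 12.72, 13.12 and 12.66 in OKM and 6.67, 6.83, 6.68 and 6.87 in iPS, and they fell by 6.26 and 6.12. Klk1b24 was detected on 4 OKM and 0 iPS arrays, at least 4.92-fold lower. Of 8 members tested these 4 fell and Klk8 (2.67) rose, while Klk10 (-0.48) was not called. In MEF Klk1b27 had a mean of 4.66 ± 0.17, detected on 0 of 4 arrays, and in ES of 8.22 ± 0.13. The size of the fall and the ES level depended on the probe. A second Klk1b27 probe fell by 1.49, from a mean of 10.21 to one of 8.72, and was detected on 0 of 4 ES arrays. The Klk1 and Klk1b genes are closely related paralogs, and cross-hybridization between their probes was not tested. Their promoters are shown because the genes fell together and to show how alike they are. The 150 bases before the start are given 5′ to 3′ from RefSeq on GRCm38.p6, each on the + strand, with CCNCNCCC matches on either strand in capitals. They lie at chr7:44225210-44225359 (Klk1), chr7:44216324-44216473 (Klk1b5), chr7:44188086-44188235 (Klk1b24) and chr7:44052140-44052289 (Klk1b27).
Klk1: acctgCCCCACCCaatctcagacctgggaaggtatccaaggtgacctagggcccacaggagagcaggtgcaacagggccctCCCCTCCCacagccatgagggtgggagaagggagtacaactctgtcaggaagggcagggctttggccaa
Klk1b5: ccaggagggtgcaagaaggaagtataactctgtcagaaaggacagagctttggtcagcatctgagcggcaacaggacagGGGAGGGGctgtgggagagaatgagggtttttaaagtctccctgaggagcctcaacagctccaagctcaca
Klk1b24: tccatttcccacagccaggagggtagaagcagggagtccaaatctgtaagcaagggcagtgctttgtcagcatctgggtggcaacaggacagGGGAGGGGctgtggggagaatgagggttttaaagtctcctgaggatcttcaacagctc
Klk1b27: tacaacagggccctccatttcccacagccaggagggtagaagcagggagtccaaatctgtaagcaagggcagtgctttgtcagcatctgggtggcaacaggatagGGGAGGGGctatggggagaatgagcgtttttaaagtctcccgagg

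The 250 bases before the start were aligned pairwise with free ends, and the aligned 157 to 236 bases of each pair were 78.8% to 91.9% identical, with Klk1b24 and Klk1b27 sharing an unbroken run of 89 bases. Klk1, Klk1b5 and Klk1b24 are consecutive among the tested genes.

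Other large falls came from genes of varied roles. Spns3, a relative of the lipid transporter family Spinster, read 8.94, 9.12, 9.10 and 9.20 in OKM and was detected on 0 of 4 iPS arrays, at least 11.7-fold lower. Art3, of the ADP-ribosyltransferase family, read 8.95, 8.90, 8.87 and 8.87 and was also below detection in iPS, at least 10.3-fold lower. Scara3, a scavenger receptor, kept a measurable level, with 12.63, 12.69, 12.66 and 12.80 in OKM and 9.45, 9.40, 9.60 and 9.02 in iPS. It fell by 3.33. Tnfrsf11b (osteoprotegerin), a decoy receptor, read 10.56, 10.89, 10.49 and 10.59 in OKM and 7.54, 7.08, 7.11 and 6.38 in iPS and fell by 3.60. The rest of the 15 were Ifi27l2a (-3.68, detected on 1 of 4 iPS arrays), Olfml1 (-3.67), the cytochrome P450 gene Cyp2b23 (-3.64), 5031410I06Rik (at least 7.80-fold lower), the amino acid transporter gene Slc7a8 (-3.42, detected on 1 of 4 iPS arrays), the amine oxidase gene Aoc1 (-3.36) and the kinase gene Dyrk4 (at least 6.16-fold lower) (adjusted p at most 2.48e-11, limma).

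Detection itself split the groups for a part of the genes. On 4 of 4 iPS and 0 of 4 OKM arrays 280 genes were detected, 2.96% of those tested, and 222 of them were called higher. The reverse held for 109 genes, 1.15%, of which 77 were called lower. Besides genes named above, the brightest of the first kind included the phospholipase gene Pla2g1b, at 11.77, 11.92, 11.85 and 12.20 in iPS, the carbonic anhydrase gene Car4, at 9.77, 9.97, 9.56 and 10.14, and Ly6g6e, at 8.99, 9.52, 9.59 and 9.43. Pla2g1b was at least 77.7-fold higher, Car4 at least 18.5-fold and Ly6g6e at least 13.2-fold. Of the second kind, the receptor phosphatase gene Ptprd read 8.24, 8.21, 7.78 and 7.90 in OKM and the neurokinin precursor gene Tac2 8.32, 8.08, 8.21 and 8.13. These were at least 5.64-fold and 6.28-fold lower in iPS. The prokineticin gene Prok2 (at least 5.20-fold lower) and the leptin gene Lep (at least 5.16-fold lower) behaved alike. At a detection p-value under 0.05 in place of 0.01 the counts were 219 and 44.

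Hox genes, which give positional identity along the body axis and are mostly silent in ES cells, fell in 4 of 25 cases, and 0 rose (limma; 2 at an unadjusted p under 0.05). Their median was -0.60. Hoxb6 read 8.0, 8.02, 8.03 and 8.07 in OKM and 6.09, 5.83, 5.78 and 6.0 in iPS. It fell by 2.11. Hoxb5 read 8.55, 8.84, 8.69 and 8.87 in OKM and 7.20, 6.68, 6.94 and 6.49 in iPS, and fell by 1.91. With Hoxb7 (-1.36) these form a run of consecutive tested genes on chromosome 11, and Hoxc6 (-1.47) was the other call. Hoxc6 had a mean of 12.21 ± 0.14 in MEF, 12.16 ± 0.06 in OKM, 10.69 ± 0.22 in iPS and 8.44 ± 0.55 in ES (SD, n = 4 each), so it was still well above background in iPS. Feeder fibroblasts can express Hox genes, and their part in these levels was not tested.

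The fibroblast and feeder list gave 7 falls among 39 genes, and 0 rose (limma; 3 at an unadjusted p under 0.05). The median was -0.26 (-0.13 with undetected levels at their bounds). The collagen VI gene Col6a1 read 12.43, 12.23, 12.19 and 12.03 in OKM and 10.92, 10.32, 10.47 and 10.22 in iPS. It fell by 1.74, and Col6a2 (-1.74) fell alike. Lower as well were the matrix gene Ccdc80 (-1.90), the gelatinase gene Mmp2 (-1.31), the collagen genes Col3a1 (at least 1.45-fold lower) and Col1a1 (-1.06, call lost at a log2 change of -0.99 without OKM replicate 1) and the collagen chaperone gene Serpinh1 (-1.04, call lost at a log2 change of -0.91 without OKM replicate 3). Most fibroblast genes were not called. Decorin (Dcn) read 12.53, 12.32, 12.47 and 12.31 in OKM and 12.63, 13.12, 12.56 and 12.79 in iPS, a difference of 0.37. Lumican (Lum) read 7.94, 8.18, 7.75 and 8.10 in OKM and 7.95, 8.23, 8.02 and 7.70 in iPS, a difference of -0.02, and neither was called. Pdgfra (0.01), Pdgfrb (-0.03) and Fbln2 (0.24) were not called. How much of this RNA came from feeders was not tested.

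TGF-beta responsive genes fell in 4 of 23 cases, with a median of -0.33. The ligand gene Tgfb2 read 7.41, 7.09, 7.51 and 7.13 in OKM and was below detection on 4 iPS arrays, at least 3.36-fold lower. The induced matrix gene Tgfbi read 10.11, 10.46, 10.55 and 10.53 in OKM and 8.44, 8.69, 8.61 and 8.03 in iPS and fell by 1.97. The ligand gene Tgfb3 (-1.24) and Ccn1 (-1.38) fell, and Tgif1 (1.37), a repressor of the pathway that is also high in ES cells, rose. Tagln (0.23) and Acta2 (-0.33) were not called. Immediate early genes, which respond to serum and stress within minutes, fell in 4 of 16 cases. Fos read 11.41, 11.08, 10.97 and 10.65 in OKM and 9.03, 8.59, 8.51 and 8.36 in iPS. It fell by 2.40, Egr1 (-1.66) fell with it, and Zfp36 (-1.01, call lost at a log2 change of -0.98 to -0.99 without OKM replicate 1, OKM replicate 4, iPS replicate 1 or iPS replicate 2), which destabilizes mRNA, fell as well. The Fos relative Fosl1 (1.31) rose, and Jun differed by 0.24.

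Interferon response genes fell in 5 of 24 cases, and 0 rose (limma; 2 at an unadjusted p under 0.05). Rsad2 (viperin), an antiviral enzyme, read 9.09, 9.18, 8.99 and 9.39 in OKM and 6.36, 6.39, 6.81 and 6.16 in iPS. It fell by 2.73 (SE 0.14). The other calls were Oas2 (-1.81), a sensor of double-stranded RNA, the GTPase gene Gbp2 (-1.35), Ifi35 (-1.25) and Dhx58 (-1.10). Isg15 (-0.49), Irf7 (detected on 2 of 4 iPS arrays, -0.45) and Ifit3 (0.65) were not called. Of 14 antigen presentation genes 4 fell and 0 rose (limma; 1 at an unadjusted p under 0.05). H2-Ab1, an MHC class II chain, read 11.002, 10.82, 10.92 and 10.89 in OKM and 8.01, 8.15, 8.18 and 8.41 in iPS. It fell by 2.72 and, with the immunoproteasome gene Psmb8 (-1.47) and the peptide transporter gene Tap2 (-1.05, call lost at a log2 change of -0.93 to -0.98 without OKM replicate 3 or iPS replicate 1), forms a run of consecutive tested genes on chromosome 17. The class II chaperone gene Cd74 (-1.10) fell too, whereas class I genes H2-K1 (-0.43) and B2m (-0.23) were not called.

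Cell cycle inhibitors were among the falls. Of 24 p53 targets and inhibitors of cyclin-dependent kinases 5 were lower and 0 rose (limma; 5 at an unadjusted p under 0.05). Cdkn1a (p21), a p53 target that blocks the cycle and limits reprogramming, read 14.24, 13.95, 14.10 and 13.97 in OKM and 12.91, 12.84, 12.88 and 13.07 in iPS. It fell by 1.14 (limma adjusted p = 5.45e-07). The relatives Cdkn1b (-1.13), Cdkn2d (-1.27) and Cdkn2c (-1.05, call lost at a log2 change of -0.97 without iPS replicate 2) fell as well, and so did the p53 target Sesn1 (-1.18). Cdkn2a (0.16) and Mdm2 (0.02) were not called. The sign for Cdkn2a depended on the probe. Its second kept probe, with means of 9.67 in OKM and 9.12 in iPS, differed by -0.55 without overlap and was not called either. Of 33 DNA replication genes 2 rose, Mcm2 (1.32) and Ccne1 (1.25), and 0 fell (limma; 3 at an unadjusted p under 0.05), with a median of 0.40. The 2 rises are 6.06% of the list, against 7.28% of all tested genes. At an unadjusted p under 0.05 (limma) 21 of the 33 were higher, most of them by less than 2-fold. Of 21 mitosis genes 0 rose (limma; 10 at an unadjusted p under 0.05) and 1 fell, Cdc25b (-1.04, call lost at a log2 change of -0.89 without iPS replicate 2).

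Metabolic lists had few called members each, with shares on both sides of those over all tested genes (7.28% higher, 5.94% lower). Called higher and lower were 9.52% and 9.52% of glycolysis genes and 16.7% and 8.33% of serine, glycine and one-carbon genes. For cholesterol synthesis the shares were 0% and 4.76%, and for ATF4 stress genes 12% and 0%. In glycolysis, Slc2a3 and the kinase gene Pdk1 (1.38) rose and Aldoc (-1.17) and Eno2 (-1.02, call lost at a log2 change of -0.97 to -0.999 without OKM replicate 1, OKM replicate 3 or iPS replicate 4) fell among 21 genes. Without single arrays 1 or 2 were called lower. Of 31 oxidative phosphorylation genes 0 rose (limma; 8 at an unadjusted p under 0.05) and 0 fell (limma; 4 at an unadjusted p under 0.05). Gldc, the glycine cleavage enzyme gene of one-carbon metabolism, read 10.01, 10.21, 10.02 and 9.96 in OKM and 13.41, 13.04, 13.21 and 13.01 in iPS. It rose by 3.12, Cbs (1.07) rose with it and Ahcy (-1.02, call lost at a log2 change of -0.94 to -0.998 without OKM replicate 2, OKM replicate 4 or iPS replicate 4) fell among 12 genes of that list. Of 21 cholesterol synthesis genes 0 rose (limma; 5 at an unadjusted p under 0.05) and 1 fell, Ebp (-1.18), and without single arrays the counts reached 1 and 2. ATF4 stress genes rose in 3 of 25 cases and 0 fell (limma; 1 at an unadjusted p under 0.05). They were Chac1 (2.69), which degrades glutathione, the tRNA ligase gene Aars (1.24) and Atf4 (1.10, detected on 3 of 4 OKM arrays, call lost at a log2 change of 0.88 to 0.94 without OKM replicate 2, iPS replicate 2 or iPS replicate 4).

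Metallothionein genes, which bind metals, rose among antioxidant genes. Mt1 read 13.14, 12.60, 12.94 and 12.70 in OKM and 15.40, 15.39, 15.34 and 15.39 in iPS. It rose by 2.53, and Mt2 (2.49, detected on 2 of 4 OKM arrays) and Srxn1 (1.37) rose too, against falls of the glutathione transferase genes Gstm5 (-1.37) and Gsta3 (-1.22), among 27 genes. Mt1 had a mean of 15.28 ± 0.06 in MEF and 15.05 ± 0.13 in ES (SD, n = 4 each). Of 30 ribosomal protein genes 0 rose (limma; 2 at an unadjusted p under 0.05) and 0 fell (limma; 1 at an unadjusted p under 0.05). Of 24 lysosome and autophagy genes 0 rose (limma; 4 at an unadjusted p under 0.05) and 0 fell (limma; 6 at an unadjusted p under 0.05), and of 10 fat, cartilage and bone markers 0 rose (limma; 3 at an unadjusted p under 0.05) and 0 fell (limma; 4 at an unadjusted p under 0.05). Without single arrays, at most 1 gene was called in each of these last 2 lists and direction.

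**Figure D4:**
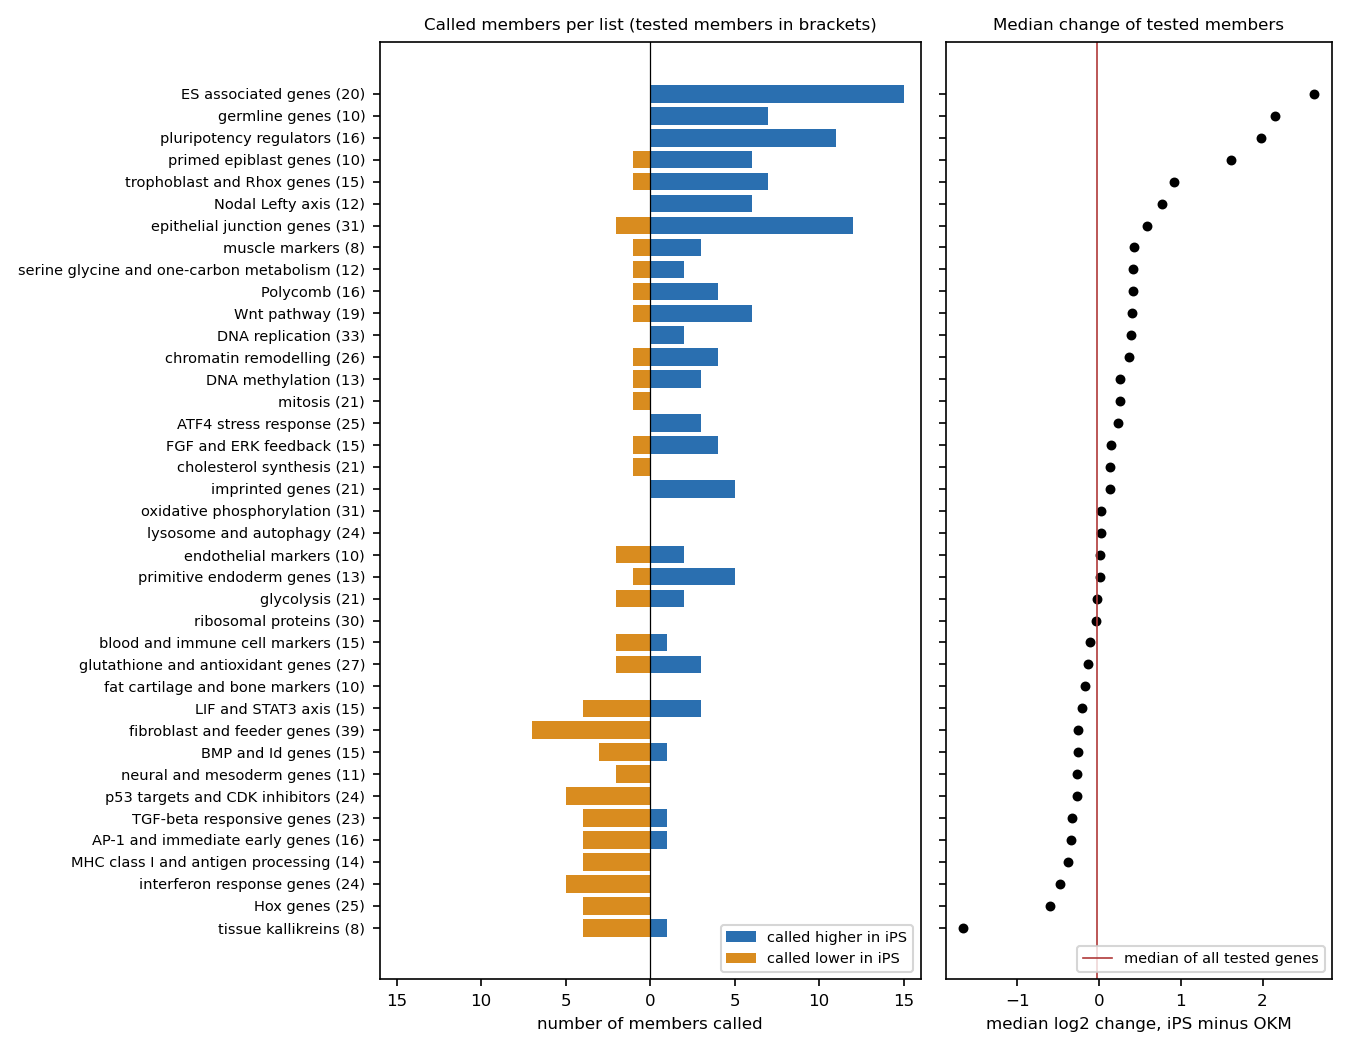
Left, number of members of each gene list called higher (blue, to the right) or lower (orange, to the left) in iPS than in OKM, with the number tested in brackets. Right, median log2 change of the tested members, with the median of all tested genes (-0.02) as a line; the ES associated, germline, pluripotency and primed epiblast lists lie furthest to the right and the tissue kallikreins furthest to the left.

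At the level of probes, 925 of 13782 rose (6.71%) and 739 fell (5.36%). Of 2517 genes with several kept probes 334 had a called probe. In 180 of these each probe was called and the directions matched, in 154 only some probes were called, and in 0 were probes called in opposite directions. Among genes named above, another kept probe was not called for Ccn1 (-0.94), Cdkn2c (-0.76), Col3a1 (-0.91), Fgf17 (0.86), Map2 (-0.59 and -0.63), Mest (0.78 and 0.98), Pim1, Smad5 (-0.54), Tbx3 (0.48) and Wnt7b (0.66). Another probe was called with a change that differed by over 2-fold for Dnmt3b (3.03), Dppa4 (3.99), Lin28a (2.20) and Slc7a8 (-1.38), besides Dppa5a and Klk1b27. Among 790 kept probes without a gene symbol here 52 rose and 50 fell.

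Changes were also read by chromosome. The 301 tested genes of chromosome 12 had a median log2 change of 0.17, and 64.1% of them were higher in iPS, against 48.1% of all tested genes. Set against the mean of the 4 groups, the median deviation of this chromosome was 0.10 to 0.17 on the 4 iPS arrays, -0.08 to -0.03 on the OKM arrays, -0.09 to 0.05 on the MEF arrays and -0.17 to -0.07 on the ES arrays. The iPS arrays lay above all others, and the medians in 4 consecutive parts of equal gene number were 0.14, 0.08, 0.28 and 0.22. The 297 tested genes of the X chromosome had a median of -0.15, with 37.7% higher in iPS. The shift was uneven, with median deviations of -0.01, -0.05, -0.10 and -0.14 on iPS arrays 1 to 4. They were 0.02 to 0.08 on the OKM arrays, 0.03 to 0.15 on the MEF arrays and -0.22 to -0.11 on the ES arrays. These shifts are small beside those of single genes. Copy number and X inactivation were not measured.

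**Figure D5:**
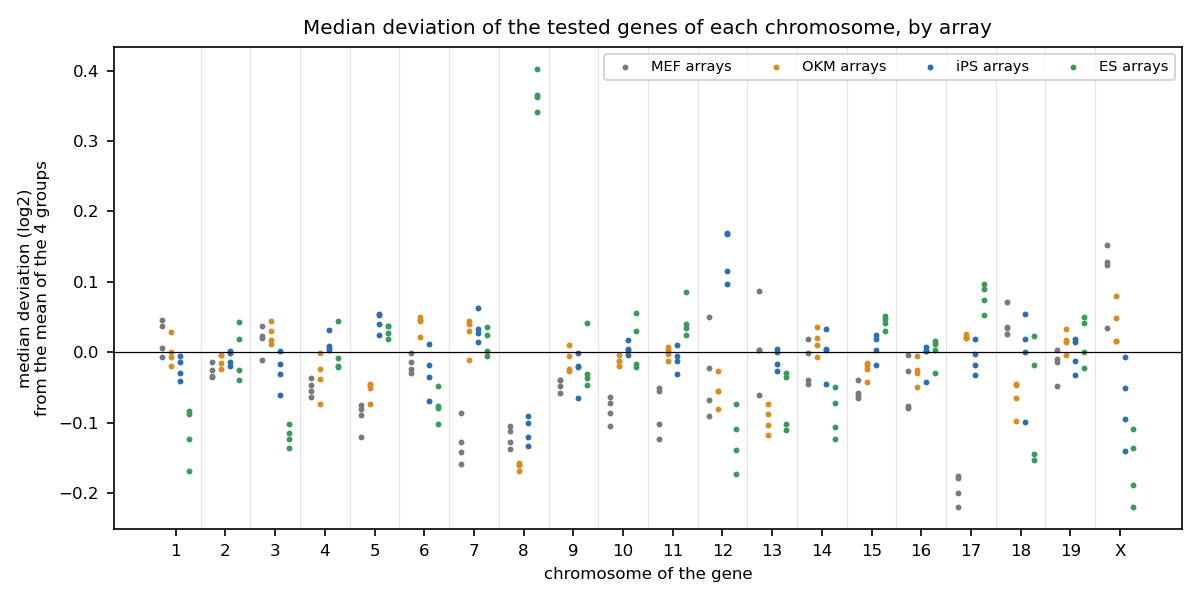
Median deviation of the tested genes of each chromosome (x axis) from the mean of the 4 groups, in log2 units (y axis), with 1 point per array. On chromosome 12 the 4 iPS arrays (blue) lie at 0.10 to 0.17, above all other arrays; chromosome 8 sets the ES arrays (green) apart, at 0.34 to 0.40.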

How the data were processed

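Total RNA of 16 dishes was read on Illumina arrays, 1 array per dish, in 4 groups of 4 that the labelled cell type defines. The deposited non-normalized table covers 25697 probes. Per the file headers it holds for every array a mean intensity and a detection p-value, and the intensities still contain background. GenomeStudio is named in the submitters' processing notes, with no version, and the steps before this table are not given in the sources used here. The authors' normalized intensity table orders probes on the same array almost alike (Spearman's rho at least 0.999998) but has 26.0% of its values below 0, and it served as an alternative. In this re-analysis the deposited intensities were turned into log2 values with neqc of limma 3.58.1 in R 4.3.3 (normexp background inferred through detection p-values, quantile normalization, offset 16), so fold changes of dim genes are understated.

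Probes detected (p under 0.01) on at least 4 of 16 arrays were kept, 13782 in all, and each gene was read from its kept probe with the highest mean. A gene undetected in one group was kept only through groups that detected it, so the shares of list members called depend on this filter. Symbols came from the platform annotation and were updated through the RefSeq table of GRCm38.p6 (23962 probes by Entrez ID and 9 by accession), and 1719 probes had no symbol. A limma model with 1 mean per group over the 16 arrays gave the contrast of iPS minus OKM, two-sided, with Benjamini-Hochberg adjustment over all 9455 genes. The procedure was tested on simulated data. With 4 arrays per group the number of arrays limits the precision. A group with 0 detected arrays has only a bound, and folds against it are given as at least N-fold, from each array's dimmest detected signal. Promoters came from RefSeq on GRCm38.p6 by gene.

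The groups, gene lists and tests were chosen with earlier results of these data known. Named genes are Pou5f1, Sox2, Klf4, Myc and Nanog, the 15 largest called changes in each direction without overlap, the 3 largest called members of each list in each direction, and the brightest genes detected in one group alone. All other called list members are named too, and genes given as not called were picked after their values were seen. Alternatives changed the background, normalization, table, filter, arrays in the fit, blocks, weights, probes per gene and thresholds, and left out each array. No set test was run.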

Additional observations from a re-analysis of the deposited data

Results flagged for a closer look

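Among the 254 genes named with values, 28 of 508 groups of 4 arrays held 1 array whose distance to the nearest other array, as a share of the group's range, was above Dixon's 95% critical value. Chance flags about 1 in 20 groups. Values are normalized log2 intensities. Among pluripotency and ES cell genes, single arrays stood high for Sox2 on OKM array 1 (10.36, nearest other 10.07), Sall4 on OKM array 3 (10.16, nearest other 9.89), Zscan10 on OKM array 1 (7.49, nearest other 7.23), Klf2 on iPS array 4 (11.12, nearest other 10.92) and Klf5 on iPS array 3 (13.16, nearest other 13.04), and low for Trh on OKM array 4 (9.68, nearest other 9.91). Without OKM array 1, the difference of Sox2 was 0.70 (limma adjusted p = 0.0179). Among genes of DNA methylation, the germline and chromatin, the high arrays were those of Dnmt3b on iPS array 1 (13.93, nearest other 13.66), Tdrd12 on iPS array 4 (11.12, nearest other 10.93) and Smarca4 on iPS array 4 (8.34, nearest other 7.80). Signalling and lineage genes with 1 high array were Etv5 on iPS array 1 (10.86, nearest other 10.55), Pou3f1 on OKM array 4 (7.75, nearest other 7.27), Wnt7b on iPS array 3 (8.18, nearest other 7.84), Sox7 on iPS array 1 (7.79, nearest other 7.44), Rhox6 on iPS array 3 (9.50, nearest other 9.03) and Lefty2 on OKM array 4 (5.95, nearest other 5.55), where Lefty2 was detected on 2 of 4 OKM arrays. In epithelial genes Cdh1 on OKM array 1 (7.37, nearest other 7.07) and Esrp1 on OKM array 2 (10.57, nearest other 10.37) were high, and Grhl3 on iPS array 2 (5.78, nearest other 6.31) and Cldn3 on OKM array 1 (6.62, nearest other 6.71) were low. Low single arrays were also found for the interferon genes Isg15 on iPS array 1 (8.83, nearest other 9.55) and Irf7 on OKM array 1 (5.74, nearest other 5.98), the cell cycle inhibitor gene Cdkn2c on OKM array 1 (8.29, nearest other 8.34) and the glycolysis gene Eno2 on iPS array 4 (10.72, nearest other 10.92), and a high one for the cholesterol synthesis gene Ebp on OKM array 3 (11.29, nearest other 11.06). The muscle gene Myog was low on iPS array 1 (5.04, nearest other 5.52), with detection on 2 of 4 iPS arrays. Another 3 cases lie within groups that were not above background on any array, Utf1 on OKM array 1 (5.27, nearest other 4.70), Fgf5 on OKM array 4 (4.69, nearest other 4.52) and Ap1m2 on OKM array 4 (4.46, nearest other 4.56). Without the array that stood apart, Eno2 lost its call (log2 change -0.97, limma adjusted p = 1.74e-07), and the other called genes of these 28 cases stayed called.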

How the results depend on the processing

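The counts of calls, 688 higher and 562 lower, were within 1.5 times of these values under another normalization (684 and 552 with cyclic loess, 610 and 647 with median scaling), the authors' normalized table (744 and 584), other filters, the 8 arrays alone, array weights, the mean of probes and the part of the table as a block (688 and 563). Median scaling moved the median log2 change of all genes from -0.02 to -0.10. They moved without background correction (346 and 268), with the adjusted p alone (2529 and 2653), at 1.5-fold (1461 and 1458) and at an adjusted p under 0.01 with 4-fold (228 and 91), where the cause is the altered threshold; for the background step the cause was not tested. Leaving out single arrays gave 653 to 698 higher and 513 to 580 lower, 286 to 319 genes detected in iPS on each array left and in OKM on none, and 110 to 139 of the reverse. A detection p under 0.05 cut the latter from 109 to 44. The titles share replicate numbers, but same-numbered iPS and OKM arrays did not deviate together (r = 0.07, -0.18, -0.26 and -0.07, across genes). The highest r with an array of another number was 0.22, 0.33, 0.34 and 0.43, each time within the same part of the table. Same-numbered arrays never share a part of the table, so their r cannot separate a shared number from the place. The replicate block gave 688 and 563 genes and 925 and 740 probes. The first 8 columns of the deposited table hold iPS arrays 1 and 3 and OKM arrays 2 and 4, and within them 683 genes were higher and 551 lower; within the last 8 they were 708 and 646. Of 200 called genes tracked, 136 were called in every setting other than the thresholds, and 0 turned direction. Those lost within the first 8 columns and not through a single array included Col6a1 (-1.43, limma adjusted p = 0.0577) and Tfap2a (-0.98), and within the last 8 Dlk1 (0.82), Id1 (-0.98), Igf2 (0.99), Tjp3 (0.95) and Trim28 (0.96, and 0.97 with median scaling). Gfpt2 (0.99) and Mybl2 (0.98) were lost with median scaling, and Map2 (-0.89) with the mean of its probes. Without background correction 55 were lost: Acta1, Ahcy, Atf4, Cbs, Cbx8, Cd74, Cd79b, Cdc25b, Cdkn1b, Cdkn2c, Cish, Col1a1, Col3a1, Dhx58, Dlk1, Eed, Eno2, Fgf15, Fgf4, Fosl1, Foxh1, Gata2, Gata6, Gsta3, Ing5, Kdm5b, Krt7, Lad1, Lama1, Lef1, Lifr, Mest, Mkrn1, Mov10l1, Notum, Nr5a2, Ovol1, Pcgf6, Pecam1, Peg10, Pim1, Plac1, Psmb8, Serpinh1, Sesn1, Sox7, Taf7l, Tap2, Tbx3, Tgfb2, Tgfb3, Tjp3, Wnt8a, Zfp36 and Zic2. The median of chromosome 12 was 0.17 to 0.19 without single arrays and 0.15 without the called genes, an alternative chosen after seeing the data. Signals near background limit the folds of genes undetected in one group.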

Other observations

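Among the 790 kept probes with no gene symbol here, some moved as far as the largest named changes. The probe with the ID ILMN_2737090 read 5.88, 6.18, 6.11 and 6.08 on OKM arrays 1 to 4 and 12.14, 12.39, 12.30 and 12.87 on iPS arrays 1 to 4. It rose by 6.36 (SE 0.15, limma adjusted p over all probes = 6.68e-16). ILMN_2609753 was detected on 0 of 4 OKM arrays and read 9.40, 9.46, 9.40 and 9.48 in iPS, at least 13.7-fold higher. In the other direction, ILMN_1238736 read 13.69, 13.81, 13.77 and 13.88 in OKM and 8.27, 8.27, 8.47 and 7.94 in iPS, and fell by 5.55, and ILMN_2809443 read 10.62, 10.81, 10.88 and 10.86 in OKM and 7.08, 7.35, 7.33 and 7.43 in iPS, and fell by 3.49. The mean of ILMN_1238736 was 7.99 ± 0.15 in ES and 4.77 ± 0.24 in MEF (SD, n = 4 each), the latter with detection on 0 of 4 arrays.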
